A study of Mus musculus with 42 samples.

Results

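The comparison was between NIH3T3 cells treated with sodium arsenite (AS) and untreated cells (NT), measured by 3′READS of total RNA. NIH3T3 is a line of mouse embryonic fibroblasts; the labels describe the cells as fibroblasts of the C57BL/6 strain, whereas the line is usually described as of Swiss mouse origin, and the label was not checked here. The AS cells were exposed to 250 µM sodium arsenite for 1 h and collected at the end of exposure (0 h of recovery), and the NT cells were kept in normal medium. The libraries were chosen by their labels, AS 1, 2 and 4 and NT 1, 2 and 4, which gave 6 of the 42 samples of the series. Libraries that share a number were treated as a pair. Per the labels, pair 4 came from a time-course set. The members were of 2 kinds: all genes, with the reads of every poly(A) site (PAS) of a gene summed, and the 475 genes with 3 or more PASs in the 3′UTR, out of 3167 genes that reached a mean of 50 RPM (reads per 1000000 reads) in 3′UTR PASs.

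Arsenite is a thiol-reactive compound. It damages proteins and depletes reduced glutathione, and cells respond with chaperones (through the heat shock factor HSF1), antioxidant enzymes (through NRF2), metal-binding metallothioneins (through MTF1) and products of the integrated stress response, in which phosphorylation of eIF2α blocks most translation while ATF4 is made. Alternative polyadenylation (APA) is the choice among several PASs in a gene, and PASs in the last exon give mRNAs that share a protein but differ in 3′UTR length. 3′READS sequences the end of each transcript next to the poly(A) tail, so that 1 read stands for 1 transcript end and levels can be set side by side between genes without a correction for length.

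The 6 libraries held 1178477 to 6974664 PAS reads, and 8883 to 10988 genes were listed in a library. Of the reads, 88.9 to 96.2% were assigned to genes. Libraries that share a number resembled each other far more than libraries of 1 treatment. Over 5448 genes the levels of AS and NT correlated with Pearson's r of 0.96 to 0.97 within a pair and of 0.68 to 0.81 between numbers, genes not being independent replicates. Single genes differed greatly between pairs: the translation factor Eef2 stood at 187, 12046 and 1946 RPM in NT1, NT2 and NT4. The reason was not tested. In bulk RNA, fewer cells and less RNA per cell cannot be told apart. Fibroblast markers summed to 7630 to 19005 RPM in NT and 8006 to 13615 in AS, with 10 of 10 listed, whereas none of the 6 epithelial markers was listed in any of the 6 libraries. Of 6 macrophage and blood markers 3 were listed, summing to 8.12 to 16.1 RPM over both groups.

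At the gene level, 26 of 9376 genes changed (0.277%), of which 25 rose with AS (0.267%) and 1 fell (0.0107%), by edgeR's quasi-likelihood test with the pair as a block and a Benjamini-Hochberg adjusted p under 0.05. The genes that rose were transcription factors of the AP-1 and immediate-early classes, chaperones, Hmox1, metallothioneins, genes of the integrated stress response and growth-arrest genes. Their log2 changes ranged from 0.90 to 3.29, whereas the median over all genes tested was -0.02. Each of the 25 was higher in AS in 3 of 3 pairs, and in 12 of them every AS library exceeded every NT library, which held for 1.17% of all genes tested. At an unadjusted p under 0.05, 374 genes (3.99%) were higher and 269 (2.87%) were lower. Csrnp1, Gadd45g, Mt1, Nr4a1, Pim3 and Dnajb1 had 79.4 to 100% of their reads past the annotated gene end. The calls rest on the pairs. Without pair 1 or without pair 2 no gene passed in edgeR. With an unadjusted p under 0.05, 250 genes were higher and 125 lower without pair 1, and 189 were higher and 183 lower without pair 2. Without pair 4, the pair with the fewest reads, 57 genes rose and 6 fell.

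**Figure D1:**
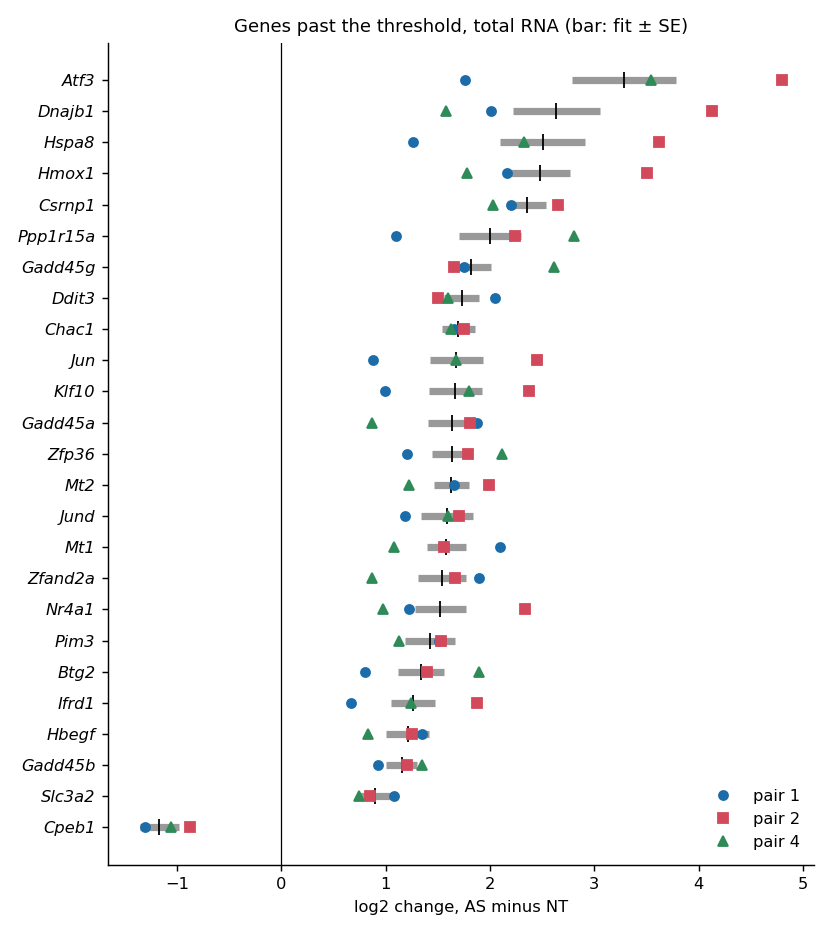
Log2 change, AS minus NT, of 25 of the 26 genes past the threshold, with 1 symbol for each pair (circle, pair 1; square, pair 2; triangle, pair 4), a tick for the fitted change and a grey bar for ± 1 SE. The 24 genes shown that rose lie right of 0 in every pair, Atf3 has the largest fitted change (3.29), and Cpeb1 lies left of 0 in every pair.

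AP-1 factors bind DNA as dimers of JUN, FOS and ATF proteins and are made within minutes of stress. Atf3, which encodes an ATF-family factor induced by many stresses, had the largest change among genes past the threshold. Atf3 (ENSMUSG00000026628.8) has 4 exons at chr1:192994175-193007219 on the minus strand of mm9. It stood at 26.2, 4.04 and 5.00 RPM in NT1, NT2 and NT4 and at 90.2, 129 and 64.7 in AS1, AS2 and AS4, so every AS library exceeded every NT library. The NT2 and NT4 levels rest on 21 and 7 reads. The log2 change was 1.76, 4.80 and 3.54 in pairs 1, 2 and 4 (fitted 3.29 ± 0.50 (SE, n = 3 pairs), edgeR adjusted p = 0.034). The fitted value was 4.62 without pair 1 and 2.34 without pair 2.

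Jun, the founding member of its family, rose from 119, 52.0 and 182 to 219, 287 and 582 RPM (log2 change 1.68 ± 0.26 (SE), edgeR adjusted p = 0.034). Jund rose from 6.17, 16.2 and 10.7 to 14.8, 53.9 and 33.7 RPM, a log2 change of 1.59, and here the groups overlapped while each pair moved upward. Of 10 AP-1 genes tested, 3 rose and none fell, and 9 were higher in all 3 pairs. Over all genes tested, 0.267% rose and 14.0% were higher in all 3 pairs. The list's median log2 change was 1.03. Junb and Fosl1 did not pass, with log2 changes of 1.07 and 0.82 and edgeR adjusted p of 0.081 and 0.091. Fos, the partner of Jun, was not listed in NT4 and stood at 50.9 and 7.89 RPM in NT1 and NT2 and at 67.7, 47.0 and 44.6 in AS, and did not pass (edgeR adjusted p = 0.39).

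Among EGR, IER and KLF genes and related immediate-early regulators, 3 of 18 rose (0.267% of all genes tested did) and none fell, with a median log2 change of 0.72. Csrnp1, a nuclear protein with a cysteine- and serine-rich region, had the smallest p of all genes tested. Its level was 19.7, 41.8 and 42.8 RPM in NT and 92.7, 266 and 177 in AS. The groups did not overlap, and the 3 pairs lay close together, with log2 changes of 2.20, 2.65 and 2.03 (fitted 2.35 ± 0.19 (SE), edgeR adjusted p = 0.0014). Klf10, a zinc finger repressor induced by TGF-β, rose by a log2 of 1.67, and Nr4a1, an orphan nuclear receptor, rose by 1.52. Egr1, the best known gene of this class, differed more between pairs than with AS. It stood at 383 and 357 RPM in NT1 and AS1, at 4.43 and 10.8 in NT2 and AS2, and was not listed in pair 4.

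Zfp36, which encodes the mRNA decay factor tristetraprolin, rose from 207, 74.7 and 20.0 to 478, 259 and 88.4 RPM (log2 change 1.64 ± 0.20 (SE), edgeR adjusted p = 0.0067). It was the only member that passed of 9 factors tested that act on AU-rich elements, and Elavl1, which encodes the stabilizing factor HuR, had a log2 change of -0.35 (adjusted p = 0.84). Dual-specificity phosphatases, which switch off MAP kinases, had a median log2 change of 0.66 over 8 genes and none passed. Dusp1 stood at 106, 54.5 and 174 RPM in NT and at 131, 405 and 464 in AS (log2 change 1.55, adjusted p = 0.24).

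Heat shock proteins fold or refold other proteins. Of 26 genes on the list of chaperones and co-chaperones tested, 3 rose and none fell, 16 were higher and 2 lower in all 3 pairs, and the median log2 change was 0.30. Over all genes tested, 0.267% rose, and 14.0% were higher and 16.0% lower in all 3 pairs. Dnajb1, an HSP40 co-chaperone of HSP70 on chromosome 8 (chr8:86132074-86135801, plus strand, 3 exons), rose from 38.6, 47.9 and 95.6 to 157, 850 and 287 RPM. Every AS library was above every NT library, but the log2 change ranged from 1.58 in pair 4 to 4.13 in pair 2 (fitted 2.63 ± 0.42 (SE), edgeR adjusted p = 0.037; fitted 1.80 without pair 2). Of its reads, 79.4% ended past the annotated gene end.

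Hspa8, the constitutive HSP70, rose from 28.5, 14.6 and 7.14 to 69.1, 186 and 38.3 RPM (log2 change 2.50 ± 0.41 (SE), edgeR adjusted p = 0.044). The fitted change was 3.38 without pair 1 and 1.64 without pair 2. These levels rest on few reads, 10 in NT4, although the NT RNA-seq library held 2161 coding RPM for this gene. Too few of the reads lay in 3′UTR PASs for a test of those alone. Hspa8 was also not tested when only PASs listed in all 6 libraries were kept. Hspa8 has many processed copies in the genome, and their part in its 3′READS level was not tested.

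Hspa1b, an inducible HSP70 gene with a near-identical neighbour that can share its reads, had the largest fitted log2 change of all genes tested, 3.44 ± 0.73 (SE), but did not pass (edgeR adjusted p = 0.14). It stood at 174, 5.20 and 54.3 RPM in NT and 750, 664 and 267 in AS, higher in 3 of 3 pairs and without overlap between the groups. Dnajb4 (log2 change 1.37), Hsp90aa1 (0.77) and Bag3 (0.70) were also higher in all 3 pairs without passing. Zfand2a, which encodes an arsenite-inducible protein bound to the proteasome, rose by a log2 of 1.54. Of 34 proteasome subunits none passed, and their median log2 change was 0.04.

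Hmox1 encodes heme oxygenase 1, which breaks down heme and is a marker of oxidative stress. Hmox1 (ENSMUSG00000005413.6, chr8:77617490-77624495, plus strand, 5 exons) stood at 191, 49.3 and 202 RPM in NT and rose to 859, 565 and 697 in AS. No AS library overlapped with NT (log2 change 2.48 ± 0.29 (SE), edgeR adjusted p = 0.0061). Hmox1 was the only one of 22 NRF2 targets tested to pass. The list had a median log2 change of 0.11. Of its members, 5 were higher and 2 lower in all 3 pairs, against 14.0 and 16.0% of all genes tested. Osgin1 had a log2 change of 1.43 (adjusted p = 0.12), and the classical targets Txnrd1 and Nqo1 had 0.38 and 0.08.

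Metallothioneins are small cysteine-rich proteins that bind zinc, copper and arsenic. Mt1 rose from 497, 866 and 1151 to 2129, 2559 and 2441 RPM (log2 change 1.58 ± 0.19 (SE), edgeR adjusted p = 0.0065). The 3 AS libraries lay within a narrow range although the NT libraries did not. Mt2 rose from 68.6, 703 and 505 to 218, 2795 and 1179 RPM, a log2 change of 1.63, and its groups overlapped because the whole of pair 1 lay low. Slc30a1, the zinc exporter driven by the same factor, had a log2 change of 1.72 but did not pass (adjusted p = 0.083).

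**Figure D2:**
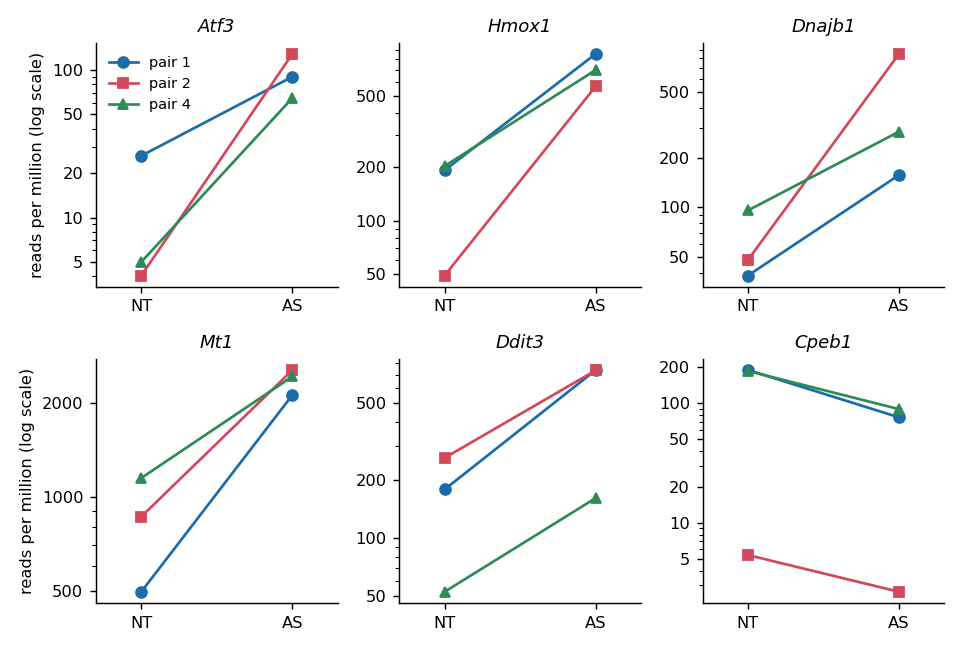
RPM (log scale) of 6 genes in NT and AS, with a line joining the 2 libraries of a pair. Atf3, Hmox1, Dnajb1 and Mt1 have every AS point above every NT point, whereas Ddit3 and Cpeb1 move the same way in each pair from levels that differ between pairs.

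ATF4 targets are made when eIF2α is phosphorylated and include regulators of amino acid supply, glutathione and recovery of translation. Of 19 tested, 4 rose and none fell, 11 were higher in all 3 pairs and 2 lower, and the median log2 change was 0.35. Over all genes tested, 0.267% rose, and 14.0% were higher and 16.0% lower in all 3 pairs. Chac1, a glutathione-degrading enzyme, rose from 132, 60.2 and 31.4 to 416, 204 and 98.4 RPM. Levels differed about as much between pairs as with AS, but the log2 change was almost the same in each pair, 1.65, 1.75 and 1.63 (fitted 1.69 ± 0.16 (SE), edgeR adjusted p = 0.0028).

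Ddit3, which encodes CHOP, rose from 179, 260 and 52.8 to 740, 737 and 161 RPM (log2 change 1.73 ± 0.17 (SE), edgeR adjusted p = 0.0028). Ppp1r15a, which encodes the GADD34 subunit that dephosphorylates eIF2α, rose from 32.4, 9.05 and 17.1 to 70.2, 45.0 and 123 RPM, a log2 change of 2.00 without overlap of the groups. Slc3a2, a chain of amino acid transporters, had the smallest called rise (0.90). Atf4 itself had a log2 change of 0.57 and did not pass (adjusted p = 0.25). Genes of the unfolded protein response of the endoplasmic reticulum did not move as a group: none of 18 passed, the median log2 change was -0.06, and the chaperone Hspa5 had a log2 change of -0.03. The co-chaperone Dnajb9 (log2 change 1.14, edgeR adjusted p = 0.22) and Herpud1, which acts in degradation of endoplasmic reticulum proteins (0.81, adjusted p = 0.27), were higher in 3 of 3 pairs without passing, and both passed when only PASs listed in all 6 libraries were kept (1.11 and 0.82).

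The GADD45 genes, named for growth arrest and DNA damage, all rose. Gadd45a rose from 29.3, 17.3 and 22.1 to 109, 62.1 and 41.0 RPM without overlap (log2 change 1.64), Gadd45b had a log2 change of 1.15, and Gadd45g of 1.82. Gadd45g was at 124 and 157 RPM in NT1 and NT2 but at 5.00 in NT4, and rose in each pair to 418, 497 and 33.7.

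Of 18 p53 targets tested, Gadd45a, Gadd45b and the antiproliferative factor Btg2 rose (0.267% of all genes tested did) and none fell. The median log2 change of that list was 0.19, and the p53 targets Cdkn1a (0.38), Mdm2 (0.70) and Sesn1 (-1.02) did not pass. Of 11 cytokine and growth factor messages, Hbegf rose alone, and the list's median was 0.28. None of 14 regulators downstream of TGF-β, BMP and Notch (median 0.51) and none of 14 SRF and YAP targets (median 0.01) passed. Of the other genes that rose, Hbegf encodes a growth factor that binds the EGF receptor (log2 change 1.21), Pim3 a survival kinase (1.42) and Ifrd1 a transcriptional regulator (1.26).

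Cpeb1, which encodes a protein that binds cytoplasmic polyadenylation elements in 3′UTRs, was the only gene to fall. It stood at 190, 5.39 and 186 RPM in NT and at 76.2, 2.65 and 89.3 in AS (log2 change -1.17 ± 0.18 (SE), edgeR adjusted p = 0.037). The pair 2 values rest on 28 and 16 reads. With 3′UTR PASs alone, Cpeb1 had too few reads to be tested, so the fall was seen at PASs outside the 3′UTR of the gene model. Cpeb1 did not go the same way in RNA-seq, with 64 coding reads in NT and 123 in AS (a log2 change of 0.68), while in cytoplasmic RNA it was lower (-1.90).

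The lists of housekeeping and structural genes lay near the median of all genes. None of 26 cell cycle genes, 18 extracellular matrix genes, 73 respiratory chain subunits, 67 cytosolic ribosomal proteins or 12 stress granule proteins passed in either direction, and their median log2 changes were -0.04, -0.17, -0.01, 0.06 and -0.12. Of the 18 matrix genes, 7 were lower in all 3 pairs (16.0% of all genes tested were) and 1 was higher. Of 23 cleavage and polyadenylation factors tested, which choose and cut PASs, none passed either. Cstf3 and Pcf11 had log2 changes of 0.63 and 0.64 and were higher in 3 of 3 pairs (edgeR adjusted p = 0.37 and 0.52). In all 3 pairs, 6 of the 23 were higher and 4 were lower, against 14.0 and 16.0% of all genes tested. The ZFP zinc finger genes, many of which encode DNA-binding repressors, had a median log2 change of 0.21 over 210 genes. Of these, 60 were higher and 15 lower in all 3 pairs, and only Zfp36 passed, which shares the name but encodes the mRNA decay factor described above.

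**Figure D3:**
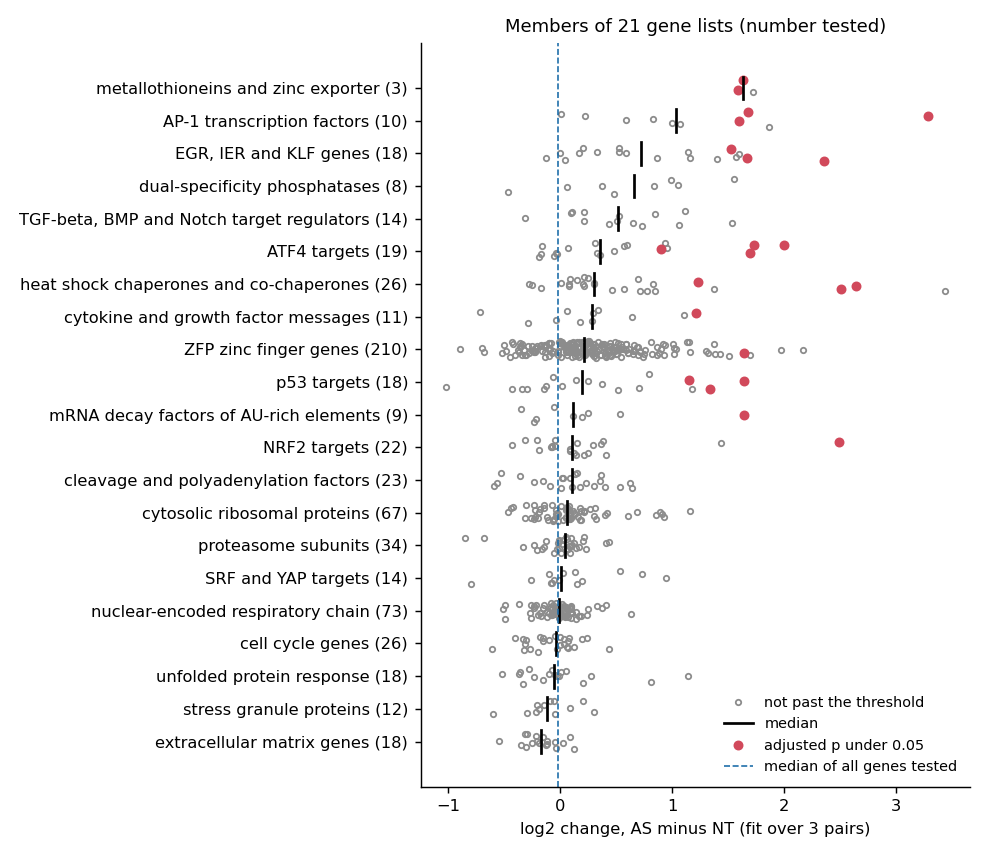
Log2 change, AS minus NT, of every tested member of 21 gene lists, filled where the adjusted p was under 0.05, with black bars for list medians and a dashed line for the median of all genes tested (-0.02). Metallothioneins (median 1.63), AP-1 factors (1.03) and EGR, IER and KLF genes (0.72) lie farthest right, and the extracellular matrix genes (-0.17) farthest left.

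The promoters of the genes that rose were searched for the binding motifs of these stress pathways, in windows from 250 bases before to 50 after the start of transcription (RefSeq, GRCm38.p6; both strands). A window was found for 20 of the 25 genes and for 6749 of the genes tested. The C/EBP-ATF response element TGATGNAA was present in 3 of the 20 (Atf3, Chac1 and Gadd45g) and in 2.53% of tested genes. The cAMP response element TGACGTCA was present in 3 of the 20 (Btg2, Ppp1r15a and Zfand2a) and in 4.01% of tested genes. The metal response element, searched as TGCACNC and TGCGCNC, was present in 11 of the 20 but also in 41.5% of tested genes. Mt1 and Mt2 held 3 and 4 copies, and 3 or more copies were present in 4.00% of tested genes. Matches to these elements are shown for some of the genes that rose, 1 match for each gene, with the motif in capitals:
Chac1 C/EBP-ATF element, chr2:119351041-119351064, plus strand: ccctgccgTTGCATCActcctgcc
Atf3 C/EBP-ATF element, chr1:191183428-191183451, minus strand: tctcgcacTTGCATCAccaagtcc
Gadd45g C/EBP-ATF element, chr13:51846566-51846589, plus strand: cgcctcatTTGCATCAgaaagcgg
Ppp1r15a cAMP response element, chr7:45526265-45526288, minus strand: ctctccggTGACGTCAgcacagcg
Mt1 metal response element, chr8:94179058-94179081, plus strand: tcccgctgTGCACACtggcgctcc
Mt2 metal response element, chr8:94172482-94172505, plus strand: agacccttTGCGCTCagctccttt

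The C/EBP-ATF matches lie on the reverse strand and so read TTNCATCA. A heat shock element of 3 units, searched as TTCNNGAANNTTC and GAANNTTCNNGAA, was found in none of the 20 windows and in 0.533% of tested genes. The shorter form of 2 units (TTCNNGAA and GAANNTTC) was in 2 of the 20, Jun and Zfand2a, and in 13.4% of tested genes. The antioxidant response element TGACNNNGC was in 5 of the 20 (17.4% of tested genes), but not in the window of Hmox1. The AP-1 site (TGACTCA and TGAGTCA) was in Csrnp1, Ddit3 and Mt2 (4.16% of tested genes) and overlapped the antioxidant element in Mt2, and the CArG box was in Zfp36 alone (1.54%). A match is a description of the letters in the window and no evidence of binding.

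Other libraries of the series gave values for the same genes. In RNA-seq of total RNA (1 NT and 1 AS library, numbered 3, coding reads, no test possible), all 25 genes that rose had a higher level in AS. Their median log2 change was 2.18, and the median over 8335 tested genes was -0.06, with 42.1% of them above 0. RNA-seq log2 changes were smaller than those in 3′READS for Mt1 (0.43 against 1.58), Mt2 (0.26 against 1.63) and Hspa8 (0.62 against 2.50). In RNA-seq, the cell cycle, matrix and ribosomal lists had median log2 changes of -0.27, -0.27 and -0.09, and the AP-1 list had 1.25.

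Cytoplasmic RNA of AS and NT cells, the input of an RNA immunoprecipitation with 2 libraries in each group, shares no library with the 6 above. All 25 genes had a positive log2 change there, with a median of 1.78, and 11 passed in edgeR, against 0.265% of 10205 genes. The cytoplasmic change was a contrast in a joint edgeR fit with the 6 total RNA libraries. Its test shares their dispersion estimate and is not a separate test of the cytoplasmic libraries. The 11 included Csrnp1 (3.30), Atf3 (4.52), Hspa8 (4.87), Hmox1 (2.58), Ddit3 (1.82) and Chac1 (1.60). The cell cycle, matrix and ribosomal lists had median log2 changes of 0.10, 0.24 and -0.09 in cytoplasmic RNA, so the first and second had the opposite sign to RNA-seq, and the AP-1 list had 1.50. Whether the AS change differed between total and cytoplasmic RNA was tested as an interaction in edgeR. None of 10205 genes passed, 457 had an unadjusted p under 0.05, and the smallest adjusted p was 0.086 (for Iqgap1, higher in cytoplasmic RNA with AS).

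PAS use was examined in the 475 genes with 3 or more 3′UTR PASs, where a PAS counted if it took at least 5% of the gene's 3′UTR reads over the 6 libraries. These genes held 1632 PASs. There were 322 genes with 3, 111 with 4 and 42 with 5 or more, and the most was 8. The distance between the PAS nearest the stop codon (first) and the farthest (last) had a median of 1343 nt, and 13.0% of the PASs lay past the annotated gene end. Of the 26 genes called at the gene level, Jun alone was among them.

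Cleavage takes place downstream of a hexamer, most often AATAAA or ATTAAA, which the cleavage and polyadenylation specificity factor binds. In the 40 nt before the PAS, AATAAA was present at 35.2% of first, 44.0% of inner and 59.6% of last PASs, with a median of 23 nt from its start to the first PAS and also to the last. ATTAAA without AATAAA was present at 20.0, 21.0 and 22.1%. The 30 nt that end at the PAS are shown for Gspt1 and Ctdspl2, whose mean 3′UTR was shorter in AS in every pair, and for Ccnd1, whose mean 3′UTR was longer, from mm9, with the hexamer in capitals where 1 was found:
Gspt1 first PAS, chr16:11220492-11220521, minus strand: ctaccatattAATAAAatattcaatttgaa
Gspt1 last PAS, chr16:11216679-11216708, minus strand: aacAATAAAaattgtcatctttccttttga
Ctdspl2 first PAS, chr2:121837771-121837800, plus strand: tattggaaATTAAAggtggacaattgataa
Ctdspl2 last PAS, chr2:121841028-121841057, plus strand: gtggggataAATAAAacttttatggaagta
Ccnd1 first PAS, chr7:152118385-152118414, minus strand: tgttaccagaagaggaagttttgttctctt
Ccnd1 last PAS, chr7:152115836-152115865, minus strand: aatctagaaAATAAAattggtaaaatctca

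In AS, last PASs held a smaller and first PASs a larger share of reads in each pair, by a small amount. Averaged over the 475 genes, the last PAS took 32.3, 31.9 and 33.5% of a gene's 3′UTR reads in NT1, NT2 and NT4 and 31.5, 30.8 and 31.0% in AS. The difference was -0.82, -1.12 and -2.50 percentage points, a mean of -1.48 ± 0.90 (SD, n = 3 pairs). The share of the first PAS differed by 1.01, 0.79 and 1.74 points (mean 1.18 ± 0.50 (SD, n = 3 pairs)), and that of inner PASs by -0.19, 0.33 and 0.76. For the first and last PAS the exact two-sided sign-flip permutation p was 0.25, the smallest that 3 pairs allow, so the design cannot reach 0.05.

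The read-weighted mean 3′UTR length, counted from the start of the last exon, had a median log2 change of -0.0090, -0.0064 and -0.023 in pairs 1, 2 and 4 (mean -0.013 ± 0.0087 (SD, n = 3 pairs), or -0.87% in length; exact sign-flip permutation p = 0.25). Mean length was lower in AS in 58.9, 55.8 and 65.1% of the genes in pairs 1, 2 and 4. It was shorter in all 3 pairs in 106 genes (22.3%) and longer in all 3 in 39 (8.21%). The changes of single genes hardly agreed between pairs, with Pearson's r of 0.05 to 0.10 across the 475 genes.

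Differences in length were largest where PASs lay far apart. In the 159 genes with a span of 1942 to 8711 nt the median log2 change was -0.030, -0.057 and -0.076 in pairs 1, 2 and 4 (mean -0.054 ± 0.023 (SD)), and 48 genes were shorter and 5 longer in all 3 pairs. In the 158 genes with a span of 65 to 836 nt it was -0.0048, 0.00029 and -0.0069. A shift of reads changes mean length more when the PASs are far apart, so the share of the last PAS was compared as well. It differed by -1.64, -2.54 and -3.67 points in the wide genes and by -0.46, -0.30 and -1.98 points in the narrow ones.

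**Figure D4:**
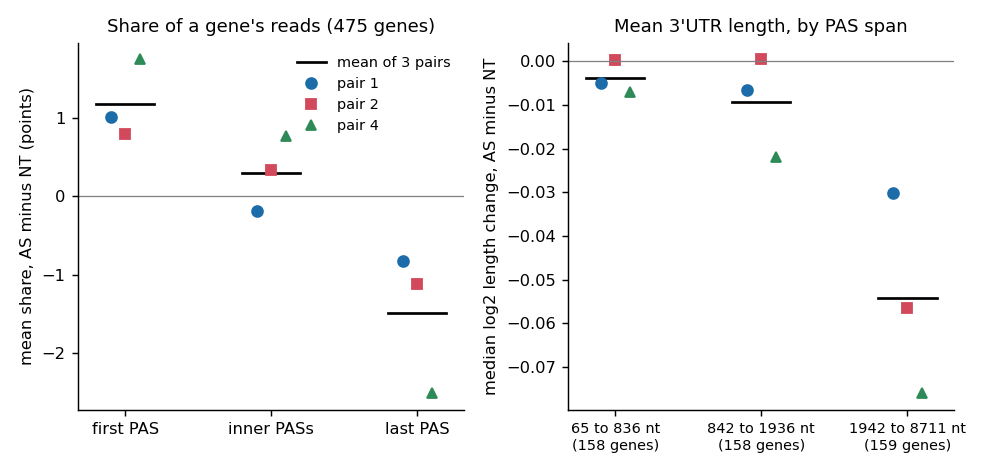
Left, change in the mean share of a gene's 3′UTR reads (percentage points, AS minus NT) at first, inner and last PASs of 475 genes; right, median log2 change of mean 3′UTR length in 3 groups of genes by the distance between first and last PAS. Symbols are the 3 pairs and bars their means; the last PAS lies below 0 in every pair, and the genes of widest span (1942 to 8711 nt) have the most negative medians.

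No single gene passed a test. For changed PAS use (edgeR, gene-level F test) 0 of 475 genes passed, 19 (4.00%) had an unadjusted p under 0.05, the smallest adjusted p was 0.81, and the Simes test over PASs gave 0. For mean length (limma) 0 passed, with 32 genes shorter (6.74%) and 3 longer (0.632%) at an unadjusted p under 0.05. The smallest p of the PAS use test belonged to Ssr1, Mfsd1, Kctd10, Syncrip and Rasa1, of which Rasa1, a brake on RAS, had 50.6, 23.3 and 51.1% of its reads at its inner PAS in NT and 73.0, 40.5 and 56.7% in AS.

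The values of the next genes chose them and are a description. The largest decreases in mean length that had 1 direction in every pair were those of Gspt1, Thap2, Ppp1r12a, Ctdspl2 and Oxsr1, with log2 length changes of -0.39, -0.36, -0.31, -0.30 and -0.29. In Gspt1, which encodes the translation termination factor eRF3a, the last PAS lay 4294 nt from the start of the last exon and the first 481 nt. The last PAS took 17.1, 34.8 and 13.7% of reads in NT1, NT2 and NT4 and 7.45, 24.6 and 8.67% in AS. The groups overlapped, and AS was lower in every pair (limma adjusted p = 0.66 for mean length).

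Ctdspl2, a phosphatase gene, ended at 1502 nt or at 4759 nt, past the annotated end, with a rare PAS between. The first PAS took 14.6, 23.3 and 23.8% of reads in NT and 21.5, 44.6 and 60.0% in AS, and the last 78.9, 70.9 and 76.2% in NT and 72.7, 45.2 and 40.0% in AS. Pair 1 differed least. The pair 4 shares of Ctdspl2 rest on 21 reads in NT4 and 20 in AS4, with 5 and 12 at the first PAS. Its inner PAS was not listed in pair 4. In Oxsr1, a kinase of the response to osmotic stress, the last PAS took 34.4, 16.9 and 47.1% in NT and 18.5, 5.26 and 44.1% in AS. In Ppp1r12a, a subunit of myosin phosphatase, the first PAS took 12.0, 9.44 and 13.7% in NT and 22.1, 17.8 and 42.9% in AS, and all of its PASs lay past the annotated end. The AS4 share rests on 42 reads. The Ppp1r12a PASs at 2559 and 2779 nt held 9 and 12 reads in NT4 and were not listed in AS4, which can raise the share of the first PAS there.

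The largest increases in every pair were found in Vrk1, Ccnd1, Mtfr1 and Lrpap1, among others (log2 length changes of 0.35, 0.35, 0.14 and 0.13), with limma adjusted p of 0.66 to 0.71. Ccnd1, which encodes cyclin D1, showed how far pairs could differ. Its last PAS, 2841 nt into the last exon, took 85.5, 22.2 and 21.7% of reads in NT1, NT2 and NT4 and 90.5, 28.8 and 43.3% in AS. The difference between pair 1 and the others was larger than the change with AS. The gene's summed level had a log2 change of 0.00.

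**Figure D5:**
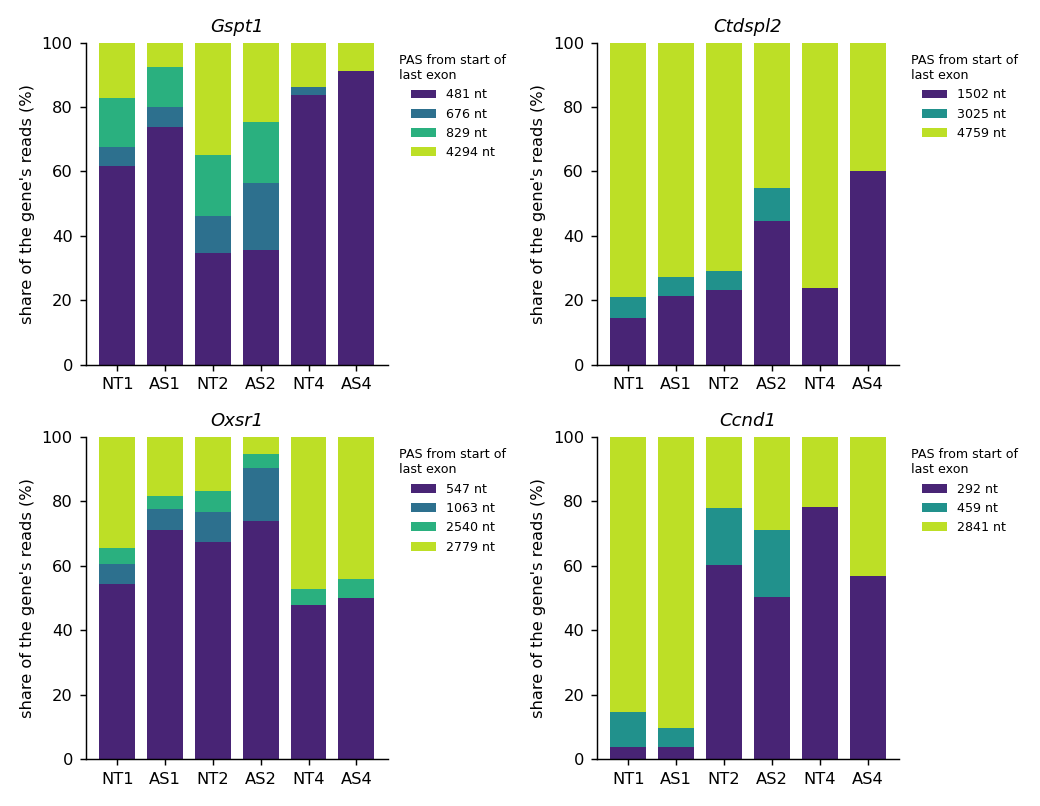
Share of a gene's 3′UTR reads (%) at each PAS in the 6 libraries, NT beside AS for each pair, for 3 genes with a shorter mean 3′UTR in AS in every pair (Gspt1, Ctdspl2, Oxsr1) and 1 with a longer one (Ccnd1); colours give the distance of the PAS from the start of the last exon. The top segment, the last PAS, is smaller in AS in each pair of the first 3 genes and larger in Ccnd1, and pairs differ among themselves by more than AS and NT do in Ccnd1.

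Jun was the gene with both a called rise in level and 3 or more PASs. Its first PAS took 17.1, 32.6 and 71.0% of reads in NT and 16.3, 32.1 and 73.2% in AS. Its last PAS took 40.1, 36.7 and 18.4% in NT and 40.7, 24.5 and 12.1% in AS. Of the genes followed for their isoforms in the study, only Hspa4l, a chaperone of the HSP110 family, had 3 or more PASs. Its log2 length change was -0.04, and the pairs differed in sign (0.00, 0.05 and -0.19). At the gene level, Nmt1, Purb, Timp2, Hspa4l, Fam49b and Rpl22 had log2 changes of 0.09, -0.31, -0.12, -0.25, -0.02 and -0.22, and none of these 6 passed.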

How the data were processed

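The authors trimmed 3′READS reads with Cutadapt, used bowtie2 (local alignment, mm9), required a mapping quality of 10 and 2 nongenomic Ts, joined ends within 24 nt into PASs and deposited their raw counts; each library's file lists PASs of 5 or more reads. For RNA-seq the authors deposited raw counts of coding reads (STAR). Here, positions of 38 libraries were joined into 83916 clusters and assigned to GENCODE M1 genes (NCBIM37, the mm9 assembly), with an allowance of 4000 nt past a gene's end. Mitochondrial genes (1.04 to 4.22% of reads) were left out. Counts were tested with edgeR 4.0.16 (TMM scaling, filterByExpr, pair and treatment). Levels of single genes in 3′READS are RPM after TMM scaling. The marker sums, the minimum of 50 RPM and the RNA-seq RPM used library totals without scaling. Mean 3′UTR length was tested with limma 3.58.1, and DESeq2 1.42.0 was an alternative. The numbers pair the libraries: deviations from the group means correlated at 0.90 to 0.92 within each number (5448 genes). The study calls replicates of this comparison biological. Counting of reads from near-identical copies was not resolved beyond the mapping quality.

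Members and gene lists were chosen with earlier results of these data known. Named genes were the 12 largest changes in each direction among called genes of 10 or more RPM, the 3 members of each list with the smallest p, the genes with 3 or more PASs and 20 or more reads per library with the 5 largest length changes in each direction, the 5 smallest p of PAS use, and genes named in the study. Others (Hspa1b, Egr1, Fos, Eef2 and members of these lists) were named after their values were seen. A few genes that met the rule are not reported here.

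On data simulated from these 6 libraries (9110 genes), the gene test called 58.0% of genes raised by a log2 of 1, 96.0% of those raised by 2, and 0% of unchanged genes. The PAS use test (475 genes) called 72.0% of genes whose last PAS was lowered by a log2 of 1.5 and 0.364% of unchanged ones. The length test called 2.02% of such genes, so a count of 0 from it says little. No lowering under a log2 of 1.5 was simulated, so the count of 0 for PAS use does not bear on small shifts. Of the 475 genes simulated for PAS use, 100 were lowered by 1.5, 100 by 3 and 275 were unchanged. The shift was the same in every pair. The share called under an adjusted p depends on how many genes changed, so the 72.0% need not hold where few genes changed or pairs differ.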

Additional observations from a re-analysis of the deposited data

How the results depend on the processing

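The calls depended on the pairing. Without the replicate block, 0 genes rose and 0 fell in edgeR, with 19 higher and 0 lower at an unadjusted p under 0.05; the biological coefficient of variation was 0.693 without the block and 0.163 with it. Leaving out 1 pair gave 0 to 57 genes higher and 0 to 6 lower. Library totals without scaling gave 11 higher and 0 lower, no filter on low counts 10 and 0, reads within the annotated gene 7 and 0, and 3′UTR PASs alone 12 and 0. Cpeb1, Hspa8 and Klf10 had too few reads in 3′UTR PASs to be tested in the last of these. DESeq2 gave 56 and 3, PASs listed in all 6 libraries 86 and 14, and keeping mitochondrial genes 25 and 2. No called gene changed sign under these settings, and DESeq2 and edgeR with median ratio scaling called all 26. The median of all genes lay between -0.024 and -0.016 (log2) under every scaling. For PAS use, mean length and the interaction with cytoplasmic RNA the count stayed 0 under each alternative, the fit without the block included. For PAS use (edgeR F test) the smallest adjusted p was 0.051 with only PASs listed in all 6 libraries. There 32 of 293 genes had an unadjusted p under 0.05. With genes of at least 100 RPM it was 0.098, with 18 of 204 genes. It was 0.31 without pair 4 and 0.63 or more under the other settings of this test. The median change of mean 3′UTR length stayed negative, -0.016 to -0.0077. Of the 26 genes, 6 had over 75% of their reads past the annotated gene end. Depth limits pair 4 most, where a gene at 5 RPM has under 10 reads and unlisted PASs can hide a share.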

Other observations

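When only PASs listed in all 6 libraries were kept, which drops PASs that fell below 5 reads in any library, 100 of 7734 genes passed in edgeR, and these held 25 of the 26 genes called above (25.0% of the 100 and 96.2% of the 26). The genes below are named after their values were seen. Among the added genes were Hspa1b (log2 change 3.43, adjusted p = 0.00028), the zinc exporter Slc30a1 (1.63), the translation factor Eif4a1 (1.65), the kinase Sik1 (1.92), the coagulation receptor F3 (1.09), Junb (1.14), Dusp1 (1.56), the integrated stress response genes Sesn2 (0.94), Trib3 (0.96) and Atf4 (0.57), and the ribosomal protein gene Rps16 (1.08). The 14 genes that fell included Cpeb1 (-1.25), the matrix protein gene Tnc (-1.17), Arrdc3 (-1.56), which encodes an α-arrestin, the deiodinase Dio2 (-1.12), the nuclear lamina gene Lmnb1 (-0.74) and Slit3 (-0.70), which encodes a secreted guidance protein.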
